A study of Mus musculus with 31 samples.

Results

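The *Ago2* knockout RNA-seq held 8 libraries, replicates 1 to 4 of *Ago2* KO mESCs and replicates 1 to 4 of *Ago2* KO/CLIPΔ mESCs. In each genotype, replicates 3 and 4 stood apart from replicates 1 and 2, and the genes behind that split are described here. The 8 libraries are among 12 RNA-seq libraries and 31 samples in all. Of the 15034 genes with a value above 0 in every RNA-seq library, the 10956 with a mean of at least 1 TPM (reads scaled for transcript length and library size) over the 8 libraries were used. The last gene above this limit was *4930558J18Rik* and the first below it *Tceanc2*, both with a mean that rounds to 1.0 TPM at 3 decimals. The split between the replicates was selected on these TPM values. The numbers of genes that differ along it are therefore a description, and no p-value is given for them.

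All cells were mouse embryonic stem cells (mESCs) of the ES-E14TG2a line, and 2i with lif is named as the medium of the profiled cells, while the methods and the sample labels list either serum with Lif or 2i with Lif. *Ago2* KO mESCs were made with a pair of guide RNAs to the coding region and grown from single cells. *Ago2* KO/CLIPΔ mESCs also lack the stretch of the *Ago2* 3′UTR that Trim71, an RNA-binding repressor of mRNAs, binds. WT mESCs and CLIPΔ mESCs, which lack only the Trim71-binding stretch, gave 2 RNA-seq libraries each. In the study’s list of lines, those of all 4 genotypes carry a FLAG tag on Trim71. How many clones gave the 4 replicates of a genotype, and what sets replicates 3 and 4 apart in handling, is not given in the sources used here. A difference between clones, passages, cultures or sequencing runs cannot be told apart. Any p-value below measures only the spread between these libraries, which may be technical.

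Mouse ES cells in 2i are held in the naive state by lif and by inhibitors of MEK and of GSK3, the kinase that restrains β-catenin. Several homeostatic programs run in them as in any culture. When amino acids or heme run low or unfolded protein collects in the endoplasmic reticulum, kinases phosphorylate eIF2α, translation slows, and the factor ATF4 turns on genes of amino acid synthesis, transport, and tRNA charging. This is the integrated stress response. When oxygen runs low, HIF1 is no longer hydroxylated and turns on genes of glycolysis, angiogenesis, and mitophagy. TFEB and TFE3 drive the lysosomal genes, SREBP2 drives cholesterol synthesis, and p53 drives genes of arrest and death. Ago2 itself is the Argonaute protein that carries miRNAs to their target mRNAs.

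The targeted gene was low in every knockout library. *Ago2* was at 1.67 and 1.85 TPM in *Ago2* KO replicates 1 and 2 and at 1.97 and 2.29 TPM in replicates 3 and 4. The double mutant had 1.51 and 1.72 and then 2.87 and 2.60 TPM. In WT mESCs it was at 28.2 and 21.6 TPM and in CLIPΔ mESCs at 27.3 and 20.3 TPM, so that all knockout libraries lay below all others. The 8 libraries also had several markers of naive mESCs. *Pou5f1* lay at 3084 to 3262 TPM, *Nanog* at 581 to 804 TPM, *Zfp42* at 511 to 628 TPM, and *Esrrb* at 64.02 to 69.7 TPM. *Dppa3*, another of the pluripotency factors listed, was low at 1.28 to 3.39 TPM. It was at 28.3 and 18.8 TPM in WT and at 269 and 117 TPM in CLIPΔ mESCs. *Sox2* was not among the genes with a value in every library.

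Markers of other cell types were not all near 0, and their summed levels moved a little between the replicates. The 10 listed of 12 primitive endoderm markers summed to 14.2 to 17.0 TPM in replicates 1 and 2 and to 19.5 to 23.4 TPM in replicates 3 and 4. *Lama1* made up much of this sum, with means of 9.63 and then 15.05 TPM. The 4 markers tested had a median log2 difference of −0.06, with 1 higher and 2 lower in both genotypes. The 9 listed of 11 trophoblast markers summed to 183 to 214 TPM and then to 135 to 165 TPM. Most of this was *Krt8*, with means of 110.3 and then 87.2 TPM, and *Eomes*, with 51.2 and then 33.9 TPM. The 7 listed of 15 fibroblast markers summed to 29.0 to 35.4 TPM and then to 25.6 to 30.5 TPM, and the 7 listed of 12 neural markers to 198 to 203 TPM and then to 169 to 215 TPM. Of the defining trophoblast genes, *Elf5* was at 0.00417 to 0.0264 TPM in the 8 libraries, *Krt7* at 0.0441 to 0.801 TPM, *Hand1* at 0.283 to 1.77 TPM, *Gata3* at 1.3 to 2.51 TPM, and *Cdx2* at 3.79 to 10.2 TPM. The neural gene *Tubb3* lay at 96.4 to 147 TPM and *Pax6* at 0.0232 to 0.158 TPM. The mesenchymal gene *Twist1* lay at 18.1 to 28.4 TPM and *Col1a2*, a collagen gene, at 0.0859 to 0.236 TPM, while *Gata6*, of primitive endoderm, was at 0.119 to 0.332 TPM. The part of other cell types in the differences below was not tested, and in bulk RNA fewer cells of a type and less RNA per cell cannot be told apart.

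The libraries of one genotype formed tight pairs. Over the 6200 genes of at least 10 TPM, the log2 ratio of 2 libraries had an SD across genes of 0.0888 to 0.133 within a pair (replicate 1 with 2, or 3 with 4). Across the pairs, it was 0.203 to 0.218 in *Ago2* KO mESCs and 0.299 to 0.331 in *Ago2* KO/CLIPΔ mESCs. The first principal component held 49.88% of the variance. On it, replicates 1 and 2 of *Ago2* KO (−13.8 and −12.94) and *Ago2* KO/CLIPΔ mESCs (−10.51 and −8.75) lay on one side. Replicates 3 and 4 of *Ago2* KO/CLIPΔ mESCs lay at 21.74 and 22.66, with those of *Ago2* KO mESCs between at 1.04 and 0.56. The split was thus wider in the double mutant.

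Each gene was compared on log2(TPM + 1), replicates 3 and 4 minus replicates 1 and 2, averaged over both genotypes. Differences below are on this scale unless TPM is named, and understate the changes of low genes. At an adjusted p under 0.05 in limma, 2910 genes (26.6% of those tested) differed, 1402 higher in replicates 3 and 4 (12.8%) and 1508 lower (13.8%). Without *Ago2* KO/CLIPΔ replicate 3 there were 1732, and without its replicate 2 there were 1916. With the replicate number as a random block there were 6069. That fit estimated a correlation of −0.618 between libraries of the same number, after genotype and split. A negative value narrows the standard error of the split, so the larger count is not stronger support. Most differences were small. Their median size was 0.2954, and 20 genes were higher and 5 lower by at least 1. All 2910, which were called on the mean of both genotypes, had the same sign in each, and 2237 of them were larger in size in *Ago2* KO/CLIPΔ mESCs. In 1289 genes (11.8%) the 4 libraries numbered 3 and 4 lay all above the other 4, and in 1108 genes (10.1%) all below.

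The gene furthest apart was *Ndufa4l2*, a HIF1 target that dampens complex I of the respiratory chain. It was at 6.34 and 5.47 TPM in *Ago2* KO replicates 1 and 2 and at 31.4 and 25.6 TPM in replicates 3 and 4. Its levels in *Ago2* KO/CLIPΔ mESCs were 6.40 and 7.81 and then 70.98 and 67.5 TPM. The difference was 2.61 (SE 0.19), and the groups did not overlap, as the choice of genes fixed. WT mESCs had 59.4 and 64.2 TPM and CLIPΔ mESCs 36.1 and 29.7 TPM, near replicates 3 and 4. Its exons overlap *Shmt2* on the opposite strand, and the sources used here do not say whether the counting used strand.

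*Bnip3*, a mitochondrial receptor for mitophagy and another HIF1 target, went the same way from a lower level. It was at 1.84 and 1.62 TPM and then at 4.18 and 4.03 TPM in *Ago2* KO mESCs. In *Ago2* KO/CLIPΔ mESCs, it was at 1.18 and 1.56 TPM and then at 8.79 and 9.60 TPM (difference 1.51, SE 0.21). WT mESCs had 17.4 and 11.8 TPM, above all 8 knockout libraries.

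Genes of stress signaling made up a further share of the highest 12. *Nupr1*, a small chromatin protein turned on by amino acid and ER stress, was at 38.2 and 41.1 TPM in *Ago2* KO replicates 1 and 2 and at 134 and 110.5 TPM in replicates 3 and 4. The double mutant had 68.2 and 77.6 and then 248 and 260.3 TPM (difference 1.69, SE 0.07). *Chac1*, which degrades glutathione and is a target of ATF4, was at 19.2 and 18.3 and then 61.7 and 48.02 TPM in *Ago2* KO mESCs. Its levels in *Ago2* KO/CLIPΔ mESCs were 29.1 and 30.2 and then 78.9 and 76.7 TPM. Both genes were also higher in *Ago2* KO/CLIPΔ than in *Ago2* KO mESCs within each pair of replicates. *Adm2*, a peptide hormone gene, was at 1.02 to 3.56 TPM in replicates 1 and 2 and at 6.44 to 15.2 TPM in replicates 3 and 4 (difference 1.68, SE 0.17).

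The neighbouring genes *S100a13* and *S100a1*, which code for calcium-binding proteins, were both among the highest. *S100a13* lay at 3.13 to 4.94 TPM in replicates 1 and 2 and at 11.5 to 25.3 TPM in replicates 3 and 4, and *S100a1* at 7.17 to 9.13 and at 16.3 to 42.9 TPM. *Lefty1*, a secreted inhibitor of Nodal, was at 15.8 and 14.8 and then 39.96 and 35.2 TPM in *Ago2* KO mESCs and at 13.97 and 13.9 and then 49.2 and 48.1 TPM in *Ago2* KO/CLIPΔ mESCs. Replicates 3 and 4 lay above replicates 1 and 2 in either genotype, as the choice of genes fixed. The rest of the highest 12 were *Bhlhe40* (1.25), a circadian and hypoxia-responsive repressor, *Fabp3* (1.24), a fatty acid carrier, *Trpm1* (1.22), a cation channel, and *Neat1* (1.19), the noncoding RNA that builds paraspeckles. Exons of *Bhlhe40* and *Fabp3* also overlap a gene on the opposite strand.

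The lowest gene of those without overlap was *Evx1*, a homeobox gene of the primitive streak. It was at 12.5 and 11.9 TPM in *Ago2* KO replicates 1 and 2 and at 3.57 and 3.59 TPM in replicates 3 and 4. In *Ago2* KO/CLIPΔ mESCs it was at 12.03 and 9.62 TPM and then at 3.25 and 3.06 TPM (difference −1.52, SE 0.08). Both genotypes had about the same levels. Its exons overlap *Evx1os* on the opposite strand.

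Other developmental regulators were low with it. *Id3*, an inhibitor of basic helix-loop-helix factors and a BMP target, was at 518 and 502 and then 267 and 271 TPM in *Ago2* KO mESCs. The double mutant had 448 and 463 and then 217 and 236 TPM (difference −0.96, SE 0.04). *Foxd3*, a forkhead factor of pluripotent cells, was at 368 and 349 and then 224 and 222 TPM, and in *Ago2* KO/CLIPΔ mESCs at 279 and 259 and then 134 and 133 TPM. *Cdx2*, a caudal homeobox gene of the trophoblast and hindgut, lay at 9.23 to 10.2 TPM in replicates 1 and 2 and at 3.79 to 5.13 TPM in replicates 3 and 4. The pairs of replicates did not overlap in any of these, as the choice of genes fixed.

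The RNA of RNase P, *Rpph1*, was at 327 and 308 and then 178 and 176 TPM in *Ago2* KO mESCs and at 325 and 314 and then 119 and 116 TPM in *Ago2* KO/CLIPΔ mESCs. Its exon overlaps *Ccnb1ip1* on the same strand, so its reads cannot be assigned with certainty. *Hist1h2bh* (−1.20), a histone H2B gene, and *Hspa1b* (−0.95), an inducible Hsp70, have near-identical copies and are uncertain for that reason. The others were *Mt4* (−1.11), a metallothionein, *Ltb4r1* (−1.08), a leukotriene receptor, *Bcl6b* (−0.97), a zinc-finger repressor, *Grrp1* (−0.94), and *Nfe2* (−0.84), a basic leucine zipper factor. In 8 of the highest 12 and 3 of the lowest 12, the mean of WT and CLIPΔ mESCs lay nearer to replicates 3 and 4. Over all genes tested this was so for 60.7%.

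**Figure D1:**
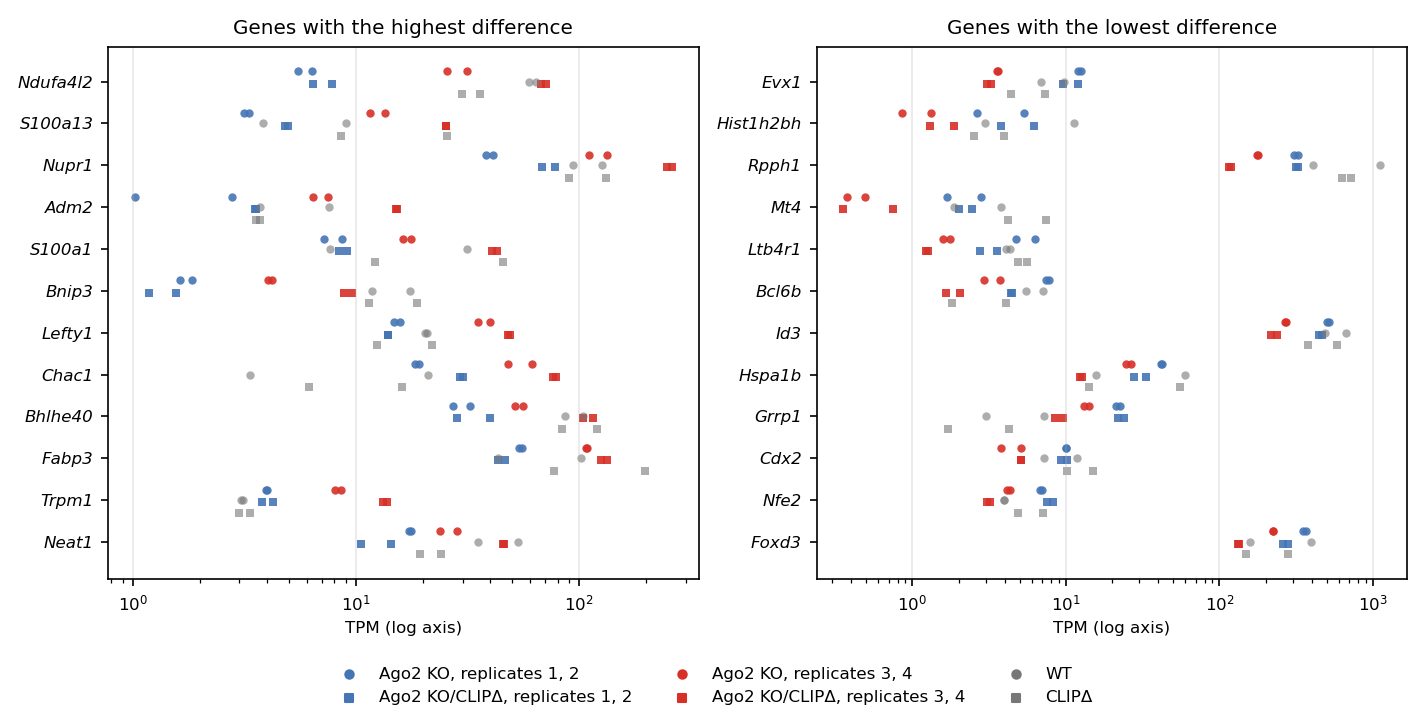
TPM on a log axis of the 12 genes highest and the 12 lowest in replicates 3 and 4, 1 point per RNA-seq library, by genotype and replicates. In each gene the 4 libraries of replicates 3 and 4 lie all on one side of the 4 libraries of replicates 1 and 2, as the choice of genes fixed.

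The functions along the split were read from gene lists. Each count below is the number of tested members past the threshold, to be read against the 12.8% higher and 13.8% lower over all genes. Median differences are given beside the median of all genes, 0.034. Since the lists and the split were chosen with these values known, no list was tested as a whole.

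Genes of the integrated stress response were the list furthest up. Of 21 tested, 15 were higher (71.4%) and 2 lower, with a median of 0.49. It was 0.44 in *Ago2* KO and 0.64 in *Ago2* KO/CLIPΔ mESCs. *Atf4*, the factor of the response, was at 869 and 907 TPM in *Ago2* KO replicates 1 and 2 and at 1438 and 1417 TPM in replicates 3 and 4. Its levels in *Ago2* KO/CLIPΔ mESCs were 965 and 1036 and then 1768 and 1921 TPM (difference 0.78, SE 0.05). *Ddit3*, which codes for the death-linked factor CHOP, lay at 17.98 to 20.6 TPM in replicates 1 and 2 and at 27.01 to 35.5 TPM in replicates 3 and 4. *Trib3*, a pseudokinase that feeds back on ATF4, differed by 0.59.

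The enzymes of proline and serine synthesis were up together. *Aldh18a1* (0.78) and *Pycr1* (0.75) make proline, and *Phgdh* (0.49), *Psat1* (0.69), and *Psph* (0.58) are the chain to serine. *Mthfd2*, of the mitochondrial folate pathway that uses serine, was at 119 to 127 TPM in replicates 1 and 2 and at 175 to 232 TPM in replicates 3 and 4. *Slc3a2* (0.45) and *Slc7a5* (0.36), the pair that forms a large neutral amino acid transporter, and *Asns* (0.20), asparagine synthetase, also passed. The lower members were *Sesn2* (−0.36), a leucine sensor that restrains mTORC1, and *Atf5* (−0.15), an ATF4-related factor. *Ddit4* (0.03), *Slc7a3* (0.05), *Cebpb* (0.21), and *Cth* (0.27) did not pass.

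The site that ATF4 binds with a C/EBP partner, TGATGNAA, was searched on both strands of the 300 bases around each gene start (RefSeq, GRCm38.p6, of mm10, as are the starts named here). It was in 5 of the 18 listed stress-response promoters, against 2.46% of the promoters of all genes tested. The list is made of genes known for this response, so the share describes the list and not the split. Among all genes past the threshold, the site was in 4.42% of the promoters of higher genes and 1.94% of those of lower genes. A match is a description and no binding was measured. The windows of *Chac1* (chr2:119351039-119351066, plus strand, 193 bases before the start) and *Nupr1* (chr7:126625563-126625590, minus strand, 110 bases before it) are shown because both genes are among the highest 12. In the GENCODE annotation *Nupr1* reaches further upstream, to base 126630861, so that its window lies inside the gene there. Capitals mark the site, here read on its other strand, and both windows hold the same 8 letters.
*Chac1*: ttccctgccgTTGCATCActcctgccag
*Nupr1*: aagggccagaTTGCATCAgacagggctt

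The aminoacyl-tRNA synthetases, many of which ATF4 also turns on, followed in part. Of 20 cytoplasmic enzymes, 10 were higher (50%) and 2 lower, with a median of 0.22. The median was 0.07 in *Ago2* KO and 0.32 in *Ago2* KO/CLIPΔ mESCs. The enzymes for serine (*Sars*, 0.66), asparagine (*Nars*, 0.49), and cysteine (*Cars*, 0.41) were highest. *Farsa* (−0.31) and *Kars* (−0.13), for phenylalanine and lysine, were lower.

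The other arm of ER stress did not show the same pattern. Of 18 ER chaperone genes, 1 was higher and 5 lower, with a median of −0.02. The higher one was *Herpud1* (0.60), of ER-associated degradation, which also answers to ATF4. *Hspa5*, the main ER chaperone BiP, was lower, at 915 to 1137 TPM in replicates 1 and 2 and at 723 to 952 TPM in replicates 3 and 4 (difference −0.32), and so were *Hyou1* (−0.24), *Manf* (−0.17), and *Creld2* (−0.15). Without *Ago2* KO/CLIPΔ replicate 2 or 3, 3 were lower. *Xbp1* (−0.03) and *Hsp90b1* (0.01) did not pass.

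Targets of HIF1 were higher. Of 17 tested, 11 were higher (64.7%) and none lower, with a median of 0.29. The median was 0.17 in *Ago2* KO and 0.43 in *Ago2* KO/CLIPΔ mESCs. *Vegfa*, the angiogenic growth factor, was at 5.52 and 5.40 TPM in *Ago2* KO replicates 1 and 2 and at 9.98 and 10.01 TPM in replicates 3 and 4. In *Ago2* KO/CLIPΔ mESCs it was at 6.12 and 7.57 TPM and then at 18.6 and 17.8 TPM (difference 1.03, SE 0.11). *Egln3* (0.60), an oxygen-sensing prolyl hydroxylase, *P4ha1* (0.57) and *P4ha2* (0.43), which hydroxylate collagen, and *Ero1l* (0.50), an ER oxidase, also passed. *Slc2a1* (0.01), *Kdm3a* (−0.05), *Mxi1* (−0.04), and *Egln1* (0.11), which HIF1 also drives in many cells, did not.

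The hypoxia count depended on the libraries. Without *Ago2* KO/CLIPΔ replicate 1, 3, or 4, 6 were higher, and without its replicate 2, 7 were. In the *Ago2* KO libraries alone 4 passed, and in the *Ago2* KO/CLIPΔ libraries alone 15.

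The core of the HIF1 site, ACGTG, was in 12 of 14 hypoxia promoters on either strand, against 30.0% of the promoters of all genes tested. The list is made of known targets, so the share describes the list and not the split. Sites are shown for *Bnip3* (chr7:138909600-138909624, minus strand, 108 bases before the start) and for the lactate exporter *Slc16a3* (chr11:120949030-120949054, plus strand, 27 bases before the start, the first of 2 there), the glycolysis gene furthest apart. The capitals mark the core, which in *Bnip3* is marked as read on the other strand. With the next base the letters there are CACGTG, which reads the same on either strand, so the core is on the shown strand too.
*Bnip3*: gcacgcgccgCACGTgccacacgct
*Slc16a3*: ggcagcggtgACGTGcgcgggggac

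Genes of glycolysis were higher as well, 12 of 23 (52.2%) with none lower and a median of 0.21. It was 0.20 and 0.23 in the respective genotypes. *Slc16a3* was at 71.98 and 58.9 TPM in *Ago2* KO replicates 1 and 2 and at 141 and 135 TPM in replicates 3 and 4, and at 58.02 and 70.8 and then 159 and 136 TPM in *Ago2* KO/CLIPΔ mESCs (difference 1.13, SE 0.09). The levels of the 2 genotypes overlapped. *Aldoc* (0.96), an aldolase, *Pfkp* (0.77) and *Pfkl* (0.45), which commit sugar to the pathway, and *Pgk1* (0.58), phosphoglycerate kinase, followed. *Gapdh* (0.05), *Pkm* (0.06), and *Eno1* (0.12) did not pass. With each library centred on its median, 7 were higher.

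The nuclear genes of the respiratory chain and ATP synthase were higher in smaller steps, 34 of 78 (43.6%) with 1 lower and a median of 0.14. The largest differences were those of *Cox7a1* (0.71), *Cox6c* (0.41), and *Cox7c* (0.38), all subunits of complex IV, and the lower one was *Cyc1* (−0.11) of complex III. Of the 85 cytoplasmic ribosomal protein genes, 38 were higher (44.7%) and 1 lower, with a median of 0.15. *Rpl3l* (0.49), *Rpl39* (0.46), and *Rps27* (0.45) were the furthest up. Many ribosomal protein genes have processed pseudogenes that can share their reads. Both lists depended on the scaling. With median centring, 19 of the respiratory genes and 14 of the ribosomal protein genes were higher. In the *Ago2* KO libraries alone, 10 and 9 were. Without *Ago2* KO/CLIPΔ replicate 2 or 3, the ribosomal protein count was 24 or 22. Of the 77 mitochondrial ribosomal proteins, 7 were higher (9.09%) and 14 lower (18.2%), with a median of −0.03. Their 7 became 1 with median centring or without *Ago2* KO/CLIPΔ replicate 3, and 3 without its replicate 1, 2, or 4.

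Genes of the lysosome and autophagy were higher, 21 of 33 (63.6%) with 3 lower and a median of 0.26. The count lay between 19 and 21 with any 1 library left out or with median centring. *Hexa*, which trims gangliosides, was at 30.3 to 38.2 TPM in replicates 1 and 2 and at 44.8 to 66.8 TPM in replicates 3 and 4 (difference 0.72, SE 0.06). *Neu1* (0.57), a sialidase, *Ctsa* (0.53), its protective protein, *Ctsl* (0.48), a cathepsin, and *Mcoln1* (0.47), the lysosomal calcium channel, passed too. The 3 lower genes are regulators and not parts of the lysosome. They were the transcription factors *Tfe3* (−0.48) and *Tfeb* (−0.30) and the kinase that starts autophagy, *Ulk1* (−0.31). *Sqstm1* (−0.02) and *Lamp2* (0.09) did not pass.

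Genes of cholesterol synthesis and uptake were higher, 15 of 24 (62.5%) with 1 lower and a median of 0.21. *Msmo1* (0.58), *Cyp51* (0.55), and *Sc5d* (0.50), which work on sterols after the ring is closed, were furthest up. *Msmo1* lay at 38.1 to 39.02 TPM in replicates 1 and 2 and at 48.8 to 71.2 TPM in replicates 3 and 4. *Insig1* (0.47), a partner of the sterol sensor, and *Hmgcs1* (0.34), an early enzyme of the pathway, were among the others. Without *Ago2* KO/CLIPΔ replicate 1 or 4, 9 were higher. *Srebf2* (0.08) itself did not pass. In fatty acid synthesis, 5 of 14 were higher and 1 lower. The 5 became 2 without *Ago2* KO/CLIPΔ replicate 2 or 3 and 3 without its replicate 1, and in the *Ago2* KO libraries alone none was higher.

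Genes of mitosis were lower. Of 31 tested, 21 were lower (67.7%) and none higher, with a median of −0.24. It was −0.27 in *Ago2* KO and −0.20 in *Ago2* KO/CLIPΔ mESCs. *Cdc20*, which activates the anaphase-promoting complex, was at 1126 and 1095 TPM in *Ago2* KO replicates 1 and 2 and at 790 and 803 TPM in replicates 3 and 4. The double mutant had 1067 and 1013 and then 543 and 534 TPM (difference −0.71, SE 0.08). *Plk1* (−0.56), *Aurka* (−0.48), and *Aurkb* (−0.41) are kinases of spindle and chromosome work. *Ube2c* (−0.49) and *Fzr1* (−0.49) act with the anaphase-promoting complex, and *Ccnb1* (−0.28) and *Cdk1* (−0.28) form the kinase of mitotic entry. *Mki67* (−0.07) and *Top2a* (−0.13), both marks of cycling cells, did not pass. Of 37 genes of DNA replication, 7 were lower and 1 higher, with a median of −0.02. Leaving out *Ago2* KO replicate 1 or 4, or *Ago2* KO/CLIPΔ replicate 1 or 3, took the 7 to 4.

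Genes of the nucleolus and ribosome assembly were lower, 15 of 29 (51.7%) with none higher and a median of −0.17. *Bop1* (−0.38), *Rrp9* (−0.33), and *Polr1b* (−0.38), a subunit of RNA polymerase I, were furthest down, and *Fbl* (−0.17), the rRNA methyltransferase, was also lower. *Ncl* (0.02) and *Npm1* (−0.19), the most abundant nucleolar proteins of many cells, did not pass. The ribosomal proteins and the factors that assemble them thus lay on opposite sides.

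The p53 targets were lower, 12 of 19 (63.2%) with 1 higher and a median of −0.23. *Phlda3* (−0.65), an inhibitor of AKT, was at 506 to 581 TPM in replicates 1 and 2 and at 275 to 450 TPM in replicates 3 and 4. *Btg2* (−0.62), an antiproliferative gene, *Plk2* (−0.54), a polo-like kinase, *Perp* (−0.37), *Aen* (−0.36), an apoptosis-linked nuclease, and *Trp53* itself (−0.27) passed. *Cdkn1a* (0.12), the p21 inhibitor of the cell cycle, was the higher one, and *Mdm2* (0.03) and *Bax* (−0.06) did not pass.

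Heat shock proteins were lower, 7 of 13 (53.8%) with 1 higher and a median of −0.24. *Hspa1b* was at 41.4 and 42.5 and then 26.7 and 24.8 TPM in *Ago2* KO mESCs and at 33.3 and 27.8 and then 12.3 and 12.7 TPM in *Ago2* KO/CLIPΔ mESCs. *Hspa1a* (−0.69), its near-identical copy, *Hsph1* (−0.45), *Dnaja1* (−0.40), *Dnajb1* (−0.35), *Hspa8* (−0.31), and the mitochondrial *Hspd1* (−0.21) also passed. *Hsp90aa1* (0.22) was the one higher, and with median centring it was not.

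**Figure D2:**
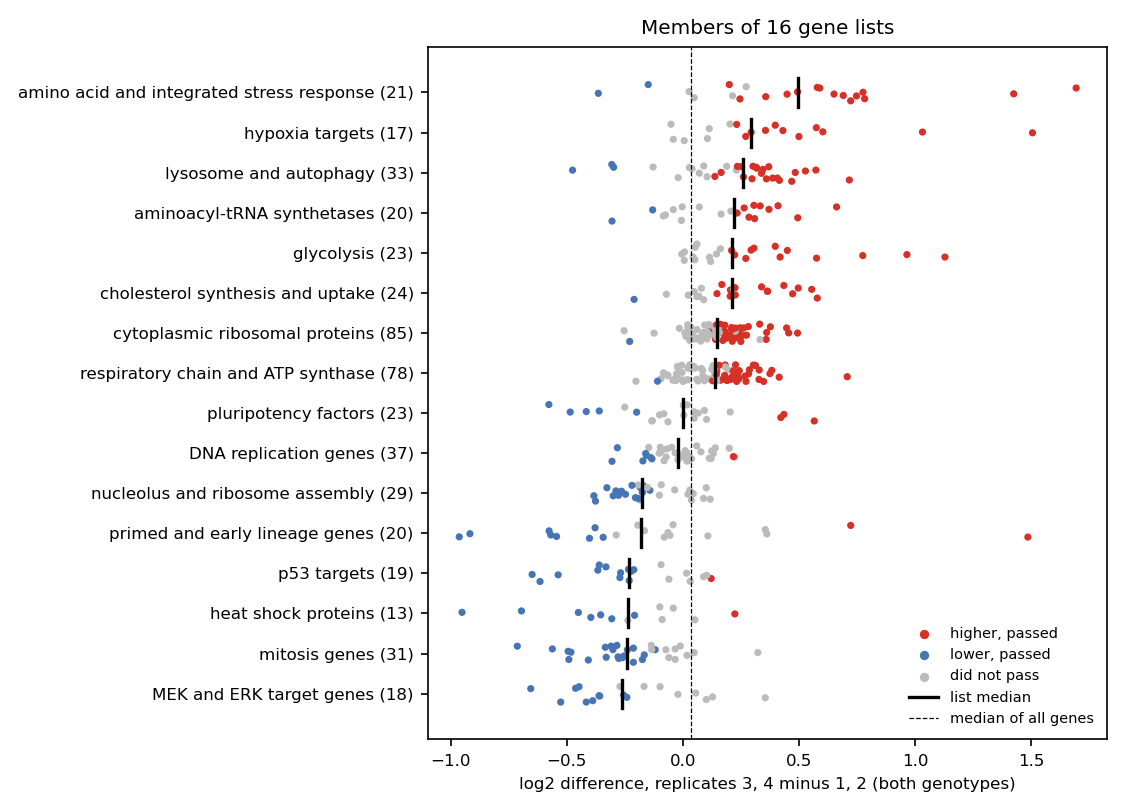
Log2 differences, replicates 3 and 4 minus replicates 1 and 2, of the tested members of the gene lists, 1 point per gene, with the median of each list and a line at the median of all genes. Most members of the stress-response, hypoxia, lysosome, and cholesterol lists lie to the right, and most members of the mitosis, p53, and heat shock lists to the left.

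Genes that answer to MEK, one of the kinases inhibited in 2i, and to ERK were lower. Of 18 tested, 10 were lower (55.6%) and none higher, with a median of −0.26, which was −0.32 in *Ago2* KO and −0.13 in *Ago2* KO/CLIPΔ mESCs. *Myc* was at 75.6 and 67.5 TPM in *Ago2* KO replicates 1 and 2 and at 41.6 and 45.1 TPM in replicates 3 and 4, and at 51.1 and 48.6 and then 31.3 and 33.7 TPM in *Ago2* KO/CLIPΔ mESCs (difference −0.66, SE 0.06). *Phlda1* (−0.53), *Ccnd1* (−0.46), which codes for cyclin D1, *Jun* (−0.42), *Spry4* (−0.36), and *Etv4* (−0.36) passed too. *Fos* (−0.45) and *Egr1* (−0.39) did so from low levels, 1.46 to 3.32 and 0.735 to 2.49 TPM. *Dusp6* (−0.27), *Spry2* (0.06), and *Etv5* (−0.02), which are also read as ERK outputs, did not.

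The pluripotency factors had a median of 0.00, with 3 of 23 higher and 5 lower. *Utf1*, a chromatin factor of mESCs, was the lowest, at 2841 to 3582 TPM in replicates 1 and 2 and at 1791 to 2473 TPM in replicates 3 and 4 (difference −0.58, SE 0.05). *Dppa3* (−0.49), *Sall4* (−0.42), and *Nanog* (−0.36) were lower, and *Tcl1* (0.57), *Dppa5a* (0.43), and *Nr0b1* (0.42) higher. *Pou5f1* (0.00), *Esrrb* (0.05), *Klf4* (0.00), and *Tfcp2l1* (0.10) lay near 0. Primed and early lineage genes had 8 of 20 lower (40%) and 2 higher. Beside *Id3* and *Cdx2*, named above, *Id2* (−0.57), *Sox11* (−0.54), and *Pou3f1* (−0.40) were low, and the Nodal inhibitors *Lefty1* and *Lefty2* (0.72) were the 2 higher. *Nodal* (−0.08), *Otx2* (0.36), and *T* (−0.29) did not pass.

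GSK3, the other kinase inhibited in 2i, acts on β-catenin, and lif acts through STAT3. Of 11 tested targets of β-catenin, 2 were higher and 2 lower. The 2 lower became 6 with median centring, 5 after adjusting for GC content, and 7 in the *Ago2* KO libraries alone, where the median was −0.23. Of 12 targets of lif and STAT3, 2 were higher and 2 lower. *Axin2*, a common readout of β-catenin, differed by −0.01 and did not pass, and *Socs3*, one of STAT3, was higher by 0.21.

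The DNA methylation genes had 5 of 12 lower (41.7%) and none higher. *Trim28*, a corepressor that protects imprints, was at 4976 to 5122 TPM and then at 3171 to 4251 TPM (difference −0.46). *Dnmt3b* (−0.39), a de novo methyltransferase, and *Uhrf1* (−0.20), of maintenance, were lower, while *Dnmt3a* differed by 0.04 and *Dnmt1* by 0.06. Of 15 genes of miRNA processing, *Lin28a* (−0.53), which blocks let-7 maturation, *Dgcr8* (−0.46), of the nuclear processing complex, and *Tarbp2* (−0.20), a partner of Dicer, were lower, and *Prkra* (0.27), another partner of Dicer, was higher. *Drosha* (−0.09) and *Dicer1* (0.12) did not pass. Among the Argonaute and silencing complex genes, *Ago2* itself was the one of 5 called (0.35), with *Ago1* at 0.07 and *Tnrc6a* at −0.05. The difference of *Ago2* was 0.18 in *Ago2* KO and 0.51 in *Ago2* KO/CLIPΔ mESCs, and the call was lost without any 1 of the 4 *Ago2* KO/CLIPΔ libraries. *Trim71* lay at 23.3 to 28.5 TPM in replicates 1 and 2 and at 22.5 to 27.3 TPM in replicates 3 and 4 (difference −0.03, SE 0.08).

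Splicing factors leaned down, with 22 of 65 lower (33.8%) and 3 higher, and 14 lower without *Ago2* KO/CLIPΔ replicate 3. Targets of NRF2, the factor of oxidative stress, leaned up, with 6 of 17 higher (35.3%) and none lower. Imprinted genes went both ways, with 6 of 20 higher and 4 lower. *Igf2r* (0.50), the scavenger of IGF2, was among the former and *Dlk1* (−0.35) among the latter, and the 6 became 3 without *Ago2* KO/CLIPΔ replicate 1, 3, or 4. Of 6 trophoblast markers tested, 3 were lower and none higher. Histones had 3 of 48 higher and 3 lower, proteasome subunits 1 of 36 higher and 5 lower, and interferon-stimulated genes 3 of 13 each way. Of 63 translation factors 6 were higher and 11 lower, of 59 chromatin modifiers 2 and 9, of 25 actin cytoskeleton and YAP genes 6 each way, of 16 matrix genes 4 and 1, and of 17 long noncoding RNAs and hosts of small nucleolar RNAs 4 and 2. Several of these counts rested on single libraries. Of the translation factors, 2 were higher and 5 lower without *Ago2* KO/CLIPΔ replicate 2 or 3, 2 and 7 without its replicate 1, and 3 and 5 without its replicate 4. The 5 lower proteasome genes became 2 without any 1 *Ago2* KO/CLIPΔ library and 3 without *Ago2* KO replicate 4. Leaving out *Ago2* KO/CLIPΔ replicate 3 left 3 actin and YAP genes, 2 matrix genes, and 1 histone gene higher, and without *Ago2* KO replicate 2, 5 histone genes were. The 3 higher interferon-stimulated genes became 1 without *Ago2* KO replicate 3 or 4 or *Ago2* KO/CLIPΔ replicate 1 or 3.

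The split was not the same in both genotypes. The median of all genes was −0.06 in *Ago2* KO and 0.12 in *Ago2* KO/CLIPΔ mESCs, and across genes the differences had an SD of 0.207 and 0.319. Across the 10956 genes, which are not independent, Pearson’s r between the genotypes was 0.519, and 56.66% of genes had the same sign. The interaction of genotype and replicates passed an adjusted p of 0.05 (limma) in 4676 genes (42.7%). The choice of the split did not use this contrast. Its error is the scatter within the pairs of replicates, however, and the split was selected on the same values. The p-values of the interaction are therefore also a description. Of the 4676 genes, 84.2% were more positive in *Ago2* KO/CLIPΔ mESCs. The median interaction over all genes was 0.168, and this direction depended on the scaling. The share more positive was 26.9% with median centring, 49.1% with quantile normalization, and 39.9% after adjusting for GC content. Without *Ago2* KO/CLIPΔ replicate 4, 2932 genes passed.

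**Figure D3:**
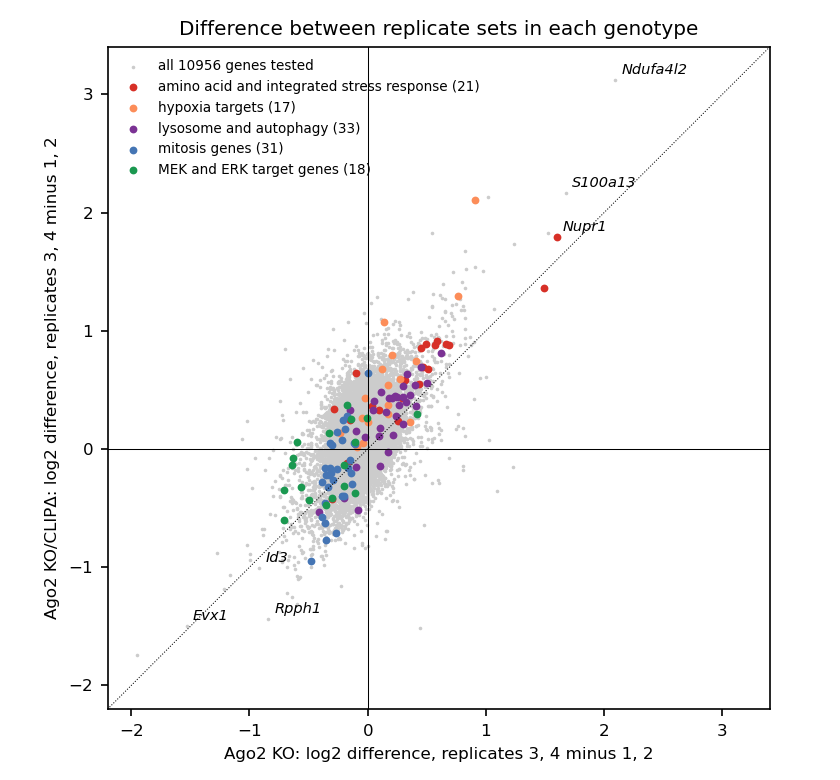
Log2 difference, replicates 3 and 4 minus replicates 1 and 2, of each gene in *Ago2* KO mESCs (horizontal) and in *Ago2* KO/CLIPΔ mESCs (vertical), with the members of 5 lists coloured, some leading genes named, and a dotted line where both are equal. The cloud is taller than it is wide, SD 0.319 against 0.207, and the named genes lie on the same side in both genotypes, as their choice fixed.

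Among the leading genes, several differed in size between the genotypes. *Ndufa4l2* differed by 2.09 in *Ago2* KO and 3.12 in *Ago2* KO/CLIPΔ mESCs (interaction 1.03, SE 0.16, adjusted p = 0.00347). *Bnip3* differed by 0.90 and 2.11 (interaction 1.20, SE 0.13, adjusted p = 0.0019), and *S100a1* by 1.01 and 2.13 (adjusted p = 0.00201). The stress genes *Nupr1* (1.60 and 1.79, adjusted p = 0.277) and *Chac1* (1.49 and 1.36, adjusted p = 0.497) did not pass the interaction, and neither did *Evx1* (−1.53 and −1.50, adjusted p = 0.875).

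A smaller number of genes went opposite ways, 157 with at least 0.25 in each direction and a passed interaction. Most of the largest interactions were found in genes of low level. *Igip* was at 2.99 and 2.03 and then 1.94 and 1.75 TPM in *Ago2* KO mESCs and at 1.24 and 2.69 and then 4.94 and 4.68 TPM in *Ago2* KO/CLIPΔ mESCs (interaction 1.30, SE 0.31, adjusted p = 0.0122). *Fancd2os* lay at 2.51 and 2.71 and then 1.47 and 1.13 TPM, against 1.18 and 1.00 and then 2.01 and 2.27 TPM (1.25, SE 0.13, adjusted p = 0.0019). *Hist1h3a* had the most negative interaction (−1.45, SE 0.50, adjusted p = 0.0479), with replicates 1 and 2 wide apart in both genotypes, at 4.79 and 1.86 TPM in *Ago2* KO and at 13.7 and 6.91 TPM in *Ago2* KO/CLIPΔ mESCs. *2300002M23Rik* (−0.95) and *Odf3b* (−0.95) came next. *Neat1*, also among the most positive (1.28), was at higher levels. It went from 17.2 and 17.7 to 23.9 and 28.3 TPM in *Ago2* KO mESCs and from 10.5 and 14.3 to 46.1 and 45.8 TPM in *Ago2* KO/CLIPΔ mESCs.

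The GC content of the transcripts moved with this difference between genotypes. Among the 2177 genes with the lowest GC content (31.0% to 44.5%), the median was −0.10 in *Ago2* KO and 0.30 in *Ago2* KO/CLIPΔ mESCs, and 74.9% passed the interaction. Among the 2177 with the highest (56.2% to 82.2%), the medians were −0.04 and −0.12, and 26.5% passed. Spearman’s rho with GC content over 10885 genes, which share the 8 libraries, was 0.152 in *Ago2* KO and −0.483 in *Ago2* KO/CLIPΔ mESCs. The zinc-finger genes, whose transcripts are AT-rich (median GC content 44.8%), followed that pattern. Their median over 291 genes was −0.12 in *Ago2* KO and 0.27 in *Ago2* KO/CLIPΔ mESCs, and 192 passed the interaction. Adjusted for GC content, 1494 genes passed it.

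The same adjustment moved the lists of the split unequally. After it, 16 of 21 stress-response genes, 11 of 17 hypoxia genes, 22 of 33 lysosomal genes, and 15 of 24 cholesterol genes were higher, and 26 of 31 mitosis genes and 12 of 19 p53 targets were lower. Other lists gained lower members, translation factors from 11 to 21, mitochondrial ribosomal proteins from 14 to 23, DNA replication genes from 7 to 12, pluripotency factors from 5 to 9, and genes of miRNA processing and interferon-stimulated genes each from 3 to 6. Over all genes it raised the count from 2910 to 4288. Of the 10885 genes fitted, 1976 were higher and 2312 lower, against 1402 and 1508 of 10956 before. The list counts after the adjustment are to be read against this general rise. Medians over the 20 chromosomes with tested genes were −0.09 to −0.05 in *Ago2* KO and 0.04 to 0.21 in *Ago2* KO/CLIPΔ mESCs, so that no chromosome left the side of the others.

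**Figure D4:**
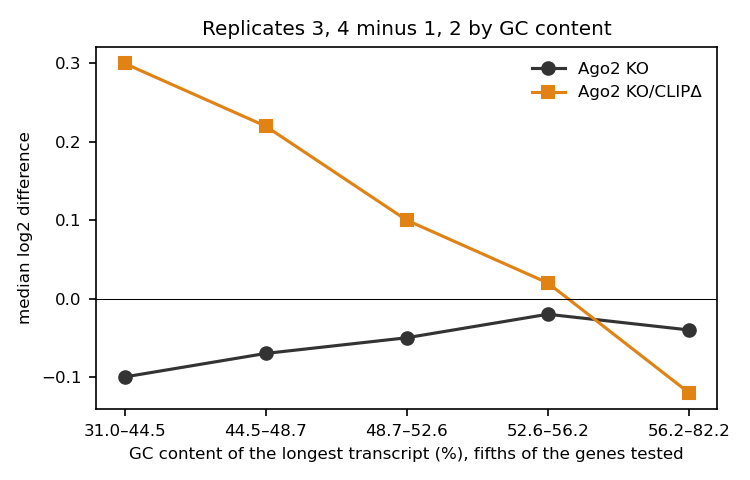
Median log2 difference, replicates 3 and 4 minus replicates 1 and 2, in 5 sets of 2177 genes by GC content of the transcript, with the genotypes as separate lines. The *Ago2* KO/CLIPΔ medians run from 0.30 in the set with the lowest GC content to −0.12 in that with the highest, while the *Ago2* KO medians stay between −0.10 and −0.02.

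The comparison of genotypes depended on the replicates used. With all 8 libraries and genotype alone in the model, 353 genes (3.22%) differed between *Ago2* KO/CLIPΔ and *Ago2* KO mESCs, 108 higher and 245 lower. With the split also in the model there were 1824, which held all 353, and with the replicate number as a block 804. With median centring the 326 genes that passed were split evenly, 163 each way. The most negative difference was that of *H19*, an imprinted noncoding RNA, which lay at 34.7 and 32.98 and 43.3 and 39.3 TPM in *Ago2* KO mESCs and at 7.57 and 7.56 and 7.50 and 7.72 TPM in *Ago2* KO/CLIPΔ mESCs (−2.16, SE 0.09, limma adjusted p = 6.67e-06). The groups were far apart, whichever replicates are taken.

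In replicates 1 and 2 alone, 4161 of the 10956 genes tested differed between the genotypes, and in replicates 3 and 4 alone 4207. Of these, 1723 passed in both, 41.4% of the first and 41% of the second, and 719 of the 1723 had opposite signs. The 41.4% is to be read against the 4207 of 10956 genes, and the 41% against the 4161 of 10956. Both are only a little above those shares, so the overlap alone does not mark a shared set. Across genes, r between the genotype differences of the 2 pairs was 0.335. *H19* (−2.02 in replicates 1 and 2 and −2.30 in replicates 3 and 4), *Cited4* (−1.25 and −1.61), and *Hoxd9* (1.03 and 1.71) kept their sign. By contrast, *Ndufa4l2* (0.23 and 1.26), *Bnip3* (−0.21 and 1.00), *Neat1* (−0.48 and 0.80), and *Hist1h3a* (1.40 and −0.04) gave another value in each pair.

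The small-RNA-seq of the same genotypes was not used to pick the split. It held replicates 1 to 4 of each genotype, and the labels do not say that an RNA-seq and a small-RNA-seq library of the same number came from one culture. Of 232 miRNAs with a mean of at least 100 TPM, 42 (18.1%) differed between replicates 3 and 4 and replicates 1 and 2 (limma, adjusted p under 0.05, genotype in the model), 10 higher (4.31%) and 32 lower (13.8%). Leaving out any of the 4 *Ago2* KO/CLIPΔ libraries gave 13 (without replicate 4) to 22, and leaving out an *Ago2* KO library gave 94, 49, 18, and 27 for replicates 1 to 4. The number of miRNAs thus rested on single libraries. A mature miRNA finds its targets by its seed, bases 2 to 8, which are in capitals in the sequences shown here (RefSeq). They are those of the highest miRNA, of others whose genes or host genes are described next, of miR-205-5p, and of a pair that shares its seed. A sequence was found for 32 of the 42.
miR-210-3p: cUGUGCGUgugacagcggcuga
miR-881-3p: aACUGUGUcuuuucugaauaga
miR-871-3p: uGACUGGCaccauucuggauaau
miR-152-3p: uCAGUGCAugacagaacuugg
miR-211-5p: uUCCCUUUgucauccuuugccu
miR-205-5p: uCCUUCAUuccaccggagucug
miR-125a-3p: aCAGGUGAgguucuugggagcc
miR-92a-3p: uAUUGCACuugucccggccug
miR-92b-3p: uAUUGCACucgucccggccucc

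The highest was miR-210-3p (chr7:141221407-141221428, minus strand, GRCm38.p6), the miRNA best known as a target of HIF1. It was at 543 and 463 TPM in *Ago2* KO replicates 1 and 2 and at 959.6 and 742 TPM in replicates 3 and 4. Its levels in *Ago2* KO/CLIPΔ mESCs were 435 and 448 and then 1079 and 1093 TPM. The means were 472 ± 48.3 TPM and 969 ± 162 TPM (SD, n = 4), and the 2 sets did not overlap. The difference was 1.02 (SE 0.12, limma adjusted p = 6.34e-05), with adjusted p values between 4.69e-10 and 0.00202 under the other settings.

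Next were 2 X-linked miRNAs, miR-881-3p (chrX:66801954-66801975, minus strand) and miR-871-3p (chrX:66810438-66810460, minus strand). The former lay at 219 to 342 TPM in replicates 1 and 2 and at 353 to 575 TPM in replicates 3 and 4, without overlap (difference 0.66, SE 0.10, limma adjusted p = 0.000952). The latter lay at 108 to 177 and at 146 to 322 TPM, with overlap (0.65, SE 0.10, limma adjusted p = 0.000952). They are neighbours but have different seeds, and of the 3 miRNAs tested from their group, 2 passed.

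Some miRNAs lie inside genes whose transcripts were measured as well. Of the 10 that passed and lie in a tested host gene, 5 differed in the same direction as the host and the rest in the opposite one. The miRNA miR-211-5p (chr7:64205831-64205852, plus strand) is in *Trpm1*, one of the 12 genes furthest up, and was itself higher (0.46, SE 0.11, limma adjusted p = 0.00921, against 1.22 for *Trpm1*). Its difference was 0.17 in *Ago2* KO and 0.74 in *Ago2* KO/CLIPΔ mESCs. The sets overlapped, with 1621 TPM in *Ago2* KO replicate 2 and 1619 TPM in replicate 3. The miRNA miR-152-3p is in *Copz2*, and both were higher (0.61 and 0.96). In *Mest* and its miR-335-3p both were lower (−0.29 and −0.32). Against these, miR-125a-3p, miR-99b-5p, and let-7e-5p were lower (−0.56, −0.26, and −0.27) while their host *Spaca6* was at 0.38 and did not pass.

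Among the lower miRNAs, miR-205-5p went from 303 ± 28.9 to 202 ± 9.92 TPM (SD, n = 4), without overlap (difference −0.58, SE 0.09, limma adjusted p = 0.000952). The lowest, miR-19a-5p, differed by −0.60 (SE 0.16, limma adjusted p = 0.0212), but its adjusted p rose to 0.109 in one of the other settings. Its difference was −0.13 in *Ago2* KO and −1.06 in *Ago2* KO/CLIPΔ mESCs, and the sets overlapped. The miRNAs miR-92a-3p (−0.29) and miR-92b-3p (−0.35) share the seed AUUGCAC and were both lower. The former is among the abundant miRNAs of these cells, at 32163 ± 6552 TPM in replicates 1 and 2 and 26155 ± 4185 TPM in replicates 3 and 4. The sets overlapped, with 29207 and 41985 and then 29344 and 30186 TPM in *Ago2* KO mESCs. The miR-290 to miR-295 family, the main one of mESCs, had 2 of 10 lower and none higher, with a median of −0.10. In let-7 and miR-98, which Trim71 and Lin28a are known for, 1 of 5 was lower and none higher. Among 46 miRNAs listed for the *Dlk1*-*Dio3* cluster 3 were lower. That list is not complete. It leaves out miR-1193-3p, which lies on chromosome 12 between the listed miR-673-3p and miR-485-3p and was also lower (−0.26).

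**Figure D5:**
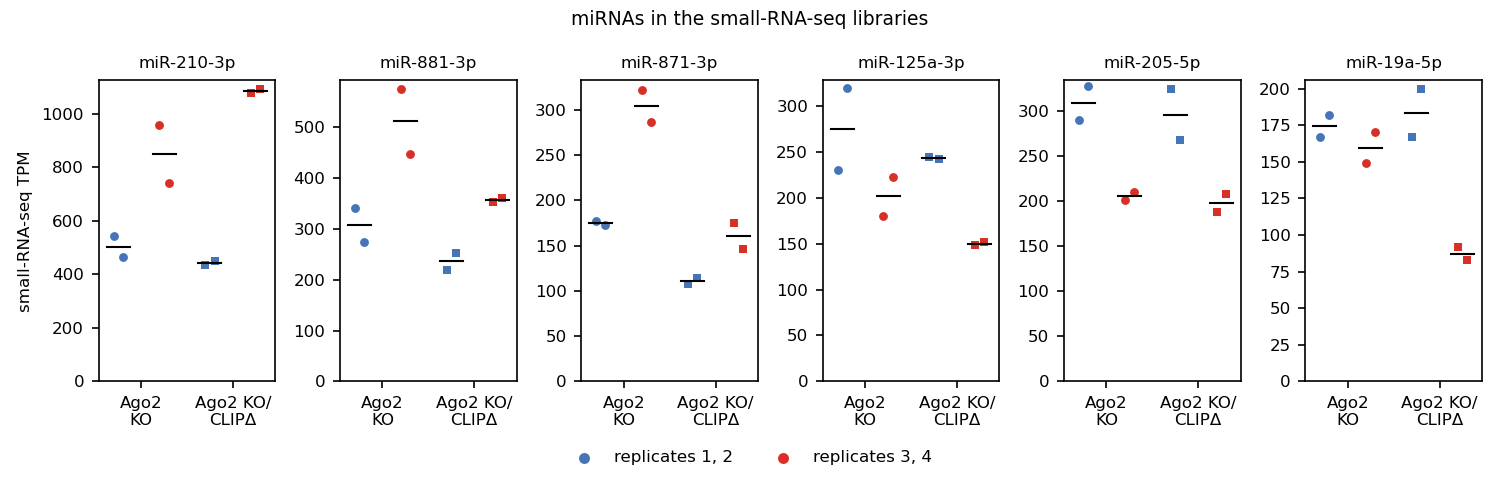
TPM (linear axes from 0) of the 3 highest and 3 lowest miRNAs past the threshold, 1 point per small-RNA-seq library, by genotype and replicates, with a line at the mean of each pair. For miR-210-3p, all libraries of replicates 3 and 4 (742 to 1093 TPM) lie above all libraries of replicates 1 and 2 (435 to 543 TPM).

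The WT and CLIPΔ RNA-seq, with replicates 1 and 2 only, lie outside the split. Replicate 2 differed from replicate 1 in 2591 of 11642 genes (22.3%) with genotype in the model, 1324 higher (11.4%) and 1267 lower (10.9%). This fit has 1 residual degree of freedom, and with no filter on low values 2 genes passed. The lowest genes in replicate 2 were *Egr1* and *Fos*, immediate-early genes of growth factor signaling, and *Isg20*, an interferon-stimulated exonuclease gene. *Egr1* was at 2481 and 68.3 TPM in WT replicates 1 and 2 and at 1613 and 57.3 TPM in CLIPΔ replicates 1 and 2, and *Fos* at 459 and 27.9 and 228 and 13.7 TPM. The levels of *Isg20* were 12 and 0.988 TPM in WT and 23.4 and 1.57 TPM in CLIPΔ mESCs. Replicate 1 was high and replicate 2 low in both genotypes. Of the 1402 genes higher in replicates 3 and 4 of the knockouts, 1388 were tested here, and 186 were higher and 137 lower in replicate 2. Of the 1508 lower genes, 1488 were tested, and 298 were higher and 124 lower. *Chac1*, high in replicates 3 and 4 of the knockouts, was at 3.33 and 21.05 TPM in WT and at 6.15 and 16.1 TPM in CLIPΔ replicates 1 and 2.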

How the data were processed

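RNA-seq libraries were made from total RNA with a directional kit. How RNA was selected, and whether counting used strand, is not given in the sources used here. Reads were aligned by the authors to mm10 (HISAT2 2.1.0), assigned to each gene’s longest transcript (HTSeq), converted to TPM, and deposited per library, unpooled, as TPM values of the genes or miRNAs above 0 in every library. The annotation release is not given in the sources used here. Each RNA-seq library summed to 998656 to 999501 TPM, and its depth is unknown, so that no counting error can be given.

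From these TPM values, log2(TPM + 1) was fitted for every gene averaging 1 TPM or more (100 TPM for miRNAs) in limma 3.58.1 (lmFit and eBayes with trend) under R 4.3.3. P-values were adjusted by Benjamini–Hochberg over all features tested and read at 0.05. Columns were matched to samples by name. The code in the names of the *Ago2* KO/CLIPΔ columns was read as that genotype. The fits were tested on simulated data. GC content was that of the longest transcript, and its adjustment used a spline with 4 degrees of freedom. Tables and figures used Python 3.11.15, pandas 2.3.3, numpy 2.4.6, and matplotlib 3.10.9.

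The split, the gene lists, and the miRNAs were chosen with earlier results of these data known. Genes named are the 12 highest and 12 lowest without overlap, up to 3 leading members per list, the 3 most extreme per other comparison, and *Ago2*, *Trim71*, *Pou5f1*, *Nanog*, and the *Dnmt3* genes. Other genes and miRNAs were named after their values were seen. Some genes that this rule names are not reported here.

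Whether replicate numbers pair libraries across genotypes was checked. Same-numbered libraries deviated together from their genotype means (r = 0.434, 0.324, 0.422, and 0.365 for numbers 1 to 4). Within the sets this was not so, since replicate 1 minus 2 correlated at 0.0264 between genotypes and replicate 3 minus 4 at −0.0349. Alternatives were other pseudocounts, filters, and scalings, a block for the replicate number, each genotype alone, and leaving out each library. The adjustment for GC content and the model with the interaction were chosen after seeing the data.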

Additional observations from a re-analysis of the deposited data

Results flagged for a closer look

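In 21 of the 36 genes examined, the difference between replicates 3 and 4 and replicates 1 and 2 differed between genotypes. This was read from the interaction in limma (adjusted p under 0.05, a description only), which 42.7% of all genes tested passed. These interactions, given as *Ago2* KO/CLIPΔ minus *Ago2* KO, are on log2(TPM + 1). Among the genes higher in replicates 3 and 4, the difference was larger in *Ago2* KO/CLIPΔ mESCs for *Ndufa4l2* (1.03), *S100a13* (0.49), *S100a1* (1.12), *Bnip3* (1.20), *Lefty1* (0.50), *Bhlhe40* (0.85), *Fabp3* (0.53), *Trpm1* (0.63), and *Neat1* (1.28). *Ago2* itself had an interaction of 0.33 (adjusted p = 0.0464). Among the lower genes, it was further down in *Ago2* KO/CLIPΔ mESCs for *Rpph1* (−0.60), *Hspa1b* (−0.54), *Grrp1* (−0.61), *Nfe2* (−0.52), and *Foxd3* (−0.32), and *Dnmt3l* had −0.17. Beside *Neat1*, the extremes over all genes were *Igip* (1.30), *Fancd2os* (1.25), *Hist1h3a* (−1.45), *2300002M23Rik* (−0.95), and *Odf3b* (−0.95). These last genes were examined because they had passed the interaction, so their passing was fixed by the choice. The GC content of transcripts moved with the interaction over all genes, with a Spearman’s rho of −0.639 over 10885 genes. Its part in these values was not tested gene by gene.

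In *Ago2* KO/CLIPΔ mESCs, 1 library stood apart in *Pou5f1*, at 3084 and 3178 TPM in replicates 3 and 4 and 3095 and 3094 TPM in replicates 1 and 2. The gap of replicate 4 to the nearest library was 0.878 of the range of the group. It was the only one of 74 groups of 4 to be this far apart, and chance gives about 1 in 20.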

How the results depend on the processing

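The 2910 genes of the split became 6069 with the replicate number as a random block, 6659 in the *Ago2* KO/CLIPΔ libraries alone, 5729 with the interaction also in the model, and 1732 to 2893 with 1 library left out. Pseudocounts, filters, scalings, and the *Ago2* KO libraries alone gave 2122 to 4288. The 4676 genes of the interaction became 2674 with quantile normalization, 1494 after GC adjustment, 4059 with the replicate number as a fixed block, and 2932 to 4123 with 1 library left out. The 353 genes between genotypes became 1824 with the split in the model, 804 with the replicate number as a block, 4161 in replicates 1 and 2 alone, 4207 in replicates 3 and 4 alone, and 135 (without *Ago2* KO replicate 1) to 255 (without *Ago2* KO/CLIPΔ replicate 1) with 1 library left out, at most 216 in all but the latter. The 42 miRNAs became 13 to 94 with 1 library left out, and were 45 with the random block, 53 with no filter, and 61 with median centring. The 2591 genes between replicates 2 and 1 of WT and CLIPΔ mESCs became 2 with no filter on low values. Leaving out a library there left no residual degrees of freedom and could not be fitted. The cause of these shifts was not tested. Of 1588 values of the 135 named genes under other settings, 1533 were counted as the same, 45 lost the threshold, and 10 gained it. With 1 library left out, 1016 of 1080 were counted as the same. None was counted as reversed in either. Only genes past the threshold in the main fit could be counted so. For the others a change of sign counted as the same. Most named genes were chosen for passing, so much of this tally was fixed by the choice.

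The replicate number lies within the split and could not be fitted with it as a fixed block. The split has the random block in its place, with an estimated correlation of −0.618 within the block. Unknown depth limits what the low genes can show.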
